A study of Mus musculus with 6 samples.

Results

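Of the 50 genes described here, all but Nme1 encode proteins that help make ribosomes in and around the nucleolus. They comprise subunits of RNA polymerases I and III, proteins of box C/D and box H/ACA particles and abundant nucleolar proteins. Others are factors that process ribosomal RNA and assemble the small and large subunits. Nme1 encodes a nucleoside diphosphate kinase. They were taken as the rows of the count table with the listed symbols, and all 50 were found among its 30445 genes. All 50 had enough counts to be tested, with between 295 and 60366 reads per gene and library.

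Messenger RNA was sequenced from wild-type mouse cells in 3 groups of 2 libraries. The groups were induced macrophages (iMac), a myeloid-like cell complex (MCC) and mouse embryonic fibroblasts (MEF), and no treatment, time or age is given for any of them. The series title names c-Myc as the factor that turned the fibroblasts into macrophages, and the labels state neither its delivery nor how MCC and iMac follow each other. The labels do not say that the libraries of a group came from separate cultures, so p-values measure only the spread between these libraries, which may be technical. Levels are in CPM, a gene's count over the scaled library total, so they give the share of a library that a gene takes. In such bulk samples a lower share of cells that make a transcript and less of it per cell cannot be told apart, and total RNA per cell was not measured.

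Ribosome production begins in the nucleolus, where polymerase I copies the ribosomal RNA genes into one long precursor. Small nucleolar particles guide its chemical modification, box C/D particles by methylation and box H/ACA particles by conversion of uridine to pseudouridine. A large processome then releases the small subunit precursor and other factors mature the large subunit, while polymerase III makes the 5S RNA and transfer RNAs. Myc is known to drive many genes of this pathway.

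Library totals ran from 34389817 to 39174367 counts. Myc was at 1022 and 1060 CPM in iMac and 823 and 1164 CPM in MCC, against 70.7 and 63.1 CPM in MEF. Whether reads from an introduced copy of Myc are included is not stated. The 12 macrophage markers summed to 25457 and 21423 CPM in iMac and 15116 and 14636 CPM in MCC, against 6.13 and 9.17 CPM in MEF. The 12 fibroblast markers summed to 15.8 and 12.2 CPM in iMac, 1000.5 CPM in MCC library 1 and 83.8 CPM in MCC library 2, against 22626 and 9937 CPM in MEF. The MCC libraries thus stood apart in fibroblast transcripts. Neural markers, mostly Nes, summed to 495 and 467 CPM in MEF and at most 71.6 CPM elsewhere, and the megakaryocyte list to 288 and 265 CPM in iMac, nearly all of it Pf4. Markers of T and NK cells, B cells, neutrophils, mast cells, red cells, endothelium, epithelium, dendritic cells and pluripotent cells summed to at most 12.8 CPM per list in any library.

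Most of the 50 genes were higher in both kinds of reprogrammed cells than in fibroblasts. In iMac against MEF 32 rose and 5 fell, where 57.6% of all 18613 tested genes were called, 25.1% higher and 32.4% lower (edgeR quasi-likelihood test, Benjamini-Hochberg adjusted p under 0.05). In MCC against MEF 39 rose and 1 fell, where 53% of all tested genes were called, 23.4% higher and 29.6% lower. The median log2 fold change of the 50 genes was 0.44 in iMac against MEF and 0.70 in MCC against MEF, beside medians of -0.06 and -0.05 over all tested genes. Changes were moderate in size, and 17 genes in iMac and 21 in MCC rose at least 2-fold, where 14.6% and 13.2% of all tested genes did. No member was called lower by 2-fold, where 26.2% and 23.1% of all tested genes were. Both iMac libraries lay above both MEF libraries for 42 of the 50 genes and below for 7, where 39.1% and 43.5% of all tested genes did. Both MCC libraries lay above both MEF libraries for 45 and below for 3, where 38.2% and 42.4% of all tested genes did. Both contrasts use the same MEF libraries, so they are not independent of each other.

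Without MCC library 1, which held more fibroblast transcripts, 34 genes rose and 1 fell in MCC against MEF, where that fit called 18.6% of all tested genes higher and 25% lower. Without iMac library 1 the count in iMac against MEF was 23 up and 2 down, and without iMac library 2 it was 20 up and 2 down. Over all tested genes these fits called 12.5% and 12.6% higher and 13.4% lower in each. Those fits take the spread of the lone iMac library from the MCC and MEF pairs. Some calls of each contrast were lost when 1 library was left out. How many calls of all tested genes were lost in this way was not counted. The sign of each called gene was the same under all 15 alternative settings.

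**Figure D1:**
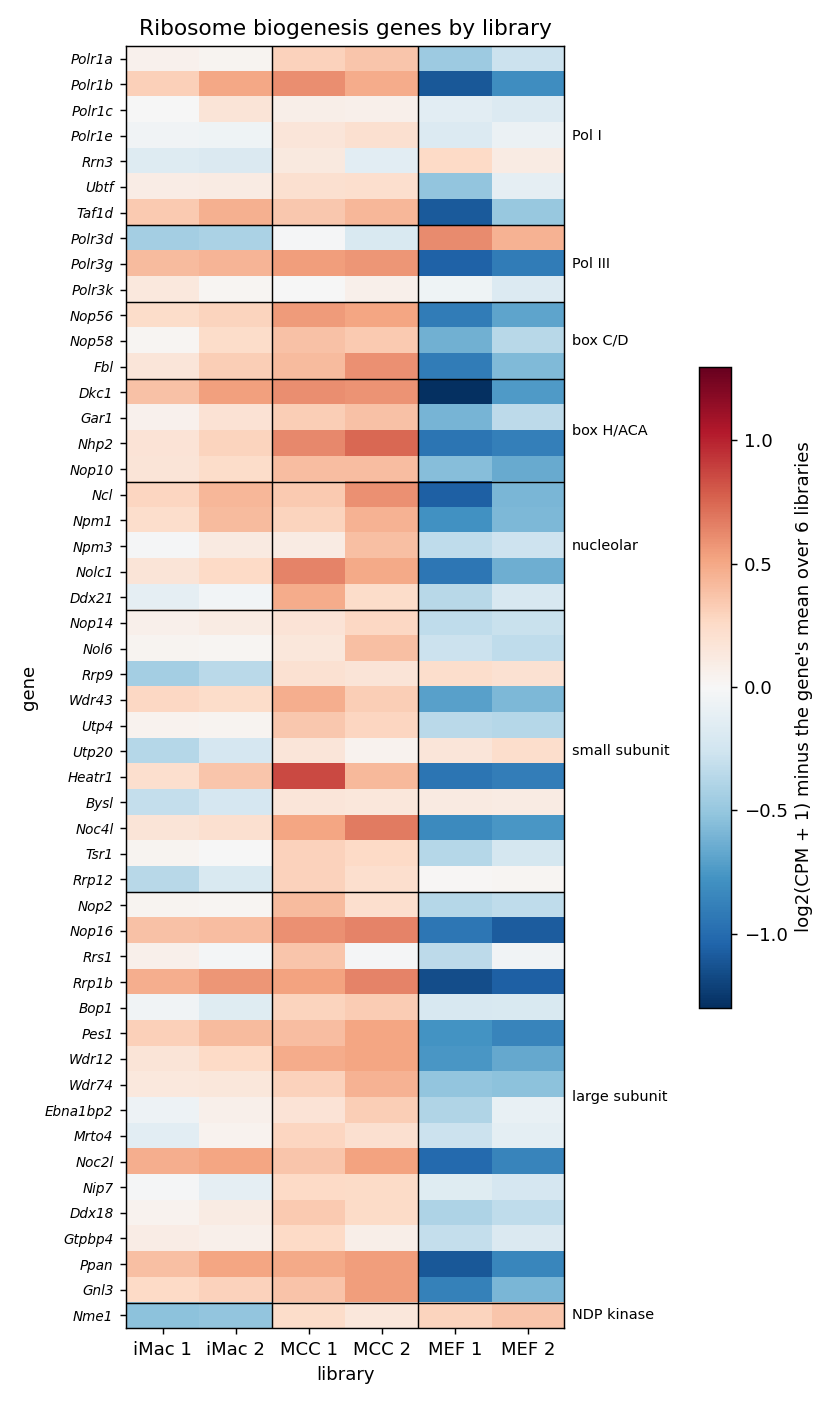
Level of each of the 50 genes in the 6 libraries, as log2(CPM + 1) minus the gene's mean over the libraries, with iMac, MCC and MEF from left to right and rows grouped by role. Red marks higher and blue lower levels than the gene's own mean. By group means 43 genes were lowest in MEF and 41 were highest in MCC, orders not counted over all tested genes.

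Summed over all 50 genes, the level was 6692 and 7184 CPM in iMac and 7667 and 8010 CPM in MCC, against 3749 and 4286 CPM in MEF. The groups did not overlap. The 50 genes took 0.627% and 0.693% of all counts in iMac and 0.800% and 0.840% in MCC, against 0.353% and 0.459% in MEF. By group means MCC was highest for 41 genes, iMac for 4 and MEF for 5. MEF was lowest for 43. These orders were not counted over all tested genes. Within MEF, library 1 was the lower of the pair for 37 of the 50 genes, by up to 0.64 on the log2(CPM + 1) scale. Within iMac library 1 was also the lower for 37, by up to 0.21, and within MCC each library was the lower for 25. The median difference of the 50 genes was -0.09 in MEF and -0.07 in iMac, beside 0 over all tested genes in both. These splits were not counted over all tested genes. Cell cycle markers differed the same way between the MEF libraries, summing to 1091 CPM in MEF library 1 and 1962 CPM in MEF library 2. They were at 1645 and 1777 CPM in iMac and 2823 and 2736 CPM in MCC, and their part in the result was not tested.

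**Figure D2:**
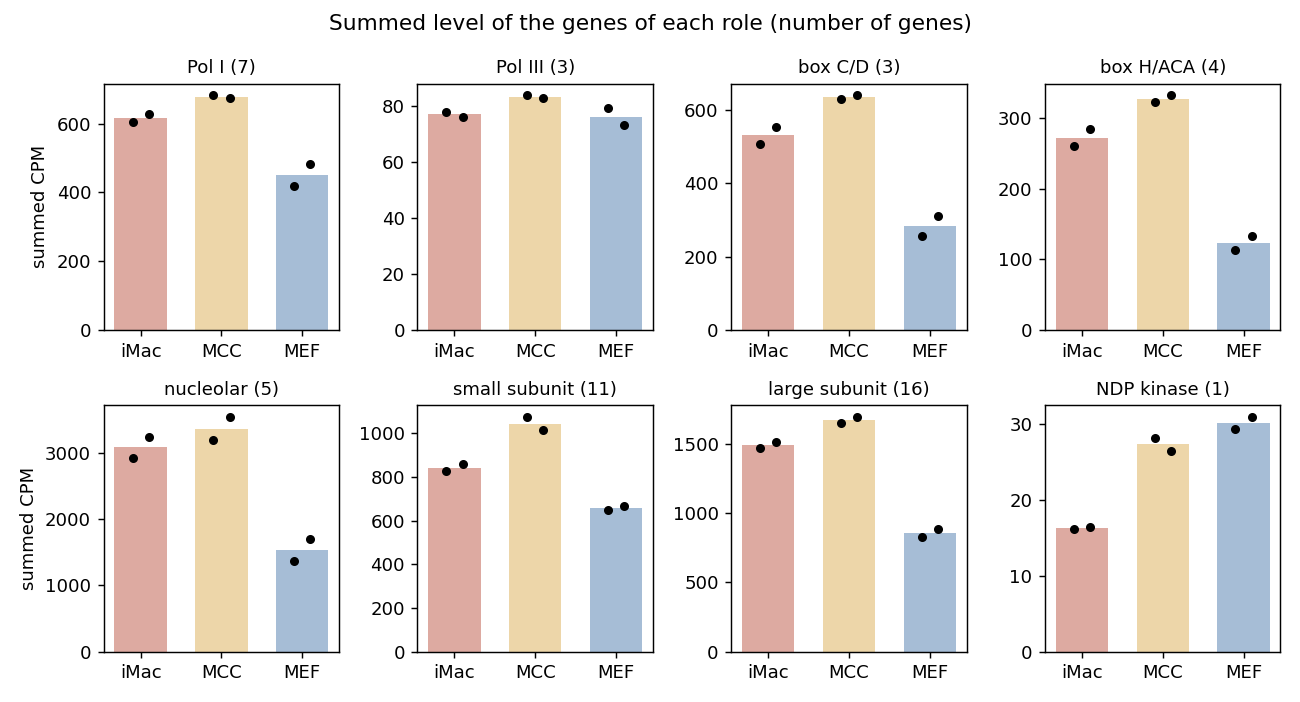
Summed CPM of the genes of each role, with bars for the mean of 2 libraries and points for the libraries, in iMac, MCC and MEF from left to right. Polymerase I, box C/D, box H/ACA, nucleolar, small-subunit and large-subunit genes summed lower in both MEF libraries than in all others. The 3 polymerase III genes summed to 76.9 CPM in iMac, 83.2 CPM in MCC and 76.1 CPM in MEF.

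Among polymerase I and its initiation factors, 3 of 7 rose in iMac and 4 of 7 in MCC. Of all tested genes 25.1% and 23.4% rose. The change was uneven between subunits. Polr1b, the second largest subunit, was at 66.9 and 76.7 CPM in iMac and 82.6 and 75.6 CPM in MCC, against 24.6 and 30.3 CPM in MEF. Both reprogrammed groups lay well above MEF, with log2 fold changes of 1.39 ± 0.15 in iMac (SE; edgeR adjusted p = 0.00193) and 1.53 ± 0.15 in MCC (edgeR adjusted p = 0.00188).
Polr1a, the largest and catalytic subunit, was at 128 and 127 CPM in iMac and 153 and 159 CPM in MCC, against 89.2 and 101.5 CPM in MEF. Its log2 fold change was 0.42 ± 0.10 in iMac and 0.71 ± 0.10 in MCC, smaller than that of Polr1b in both. The iMac call of Polr1a was lost without iMac library 1 (edgeR adjusted p = 0.103) or iMac library 2 (0.0952).
Taf1d, a subunit of the selectivity factor that places polymerase I on its promoter, rose by 1.17 ± 0.21 in iMac and 1.17 ± 0.21 in MCC on the log2 scale. Taf1d shares 13.6% of its exonic bases with other annotated genes, several of them small RNAs in the same locus, and lost its iMac call without iMac library 2 (edgeR adjusted p = 0.0539).
Ubtf, which bends and opens the ribosomal DNA, had the highest level of these genes, at 174 and 175 CPM in iMac and 188 and 189 CPM in MCC, against 114 and 149 CPM in MEF. It passed in MCC, at 0.52 ± 0.14 (edgeR adjusted p = 0.0323), and not in iMac, at 0.41 ± 0.14 (edgeR adjusted p = 0.0591). The MCC call was lost without each of the iMac and MCC libraries, at edgeR adjusted p of 0.0759, 0.0759, 0.0776 and 0.0531.

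The other initiation and shared components did not pass. Rrn3, the factor that makes polymerase I able to start, was at 70.7 and 69.7 CPM in iMac and 86.5 and 72.1 CPM in MCC, against 95.5 and 85.5 CPM in MEF. It was thus lower in both iMac libraries than in both MEF libraries, while MCC overlapped MEF, and its log2 fold changes were -0.37 ± 0.12 in iMac (edgeR adjusted p = 0.0515) and -0.19 ± 0.12 in MCC (edgeR adjusted p = 0.241). In iMac it passed under 8 of the alternatives, such as DESeq2 with a log2 fold change of -0.43 (adjusted p = 0.0108). Polr1c, a subunit that polymerases I and III share, was at 0.25 ± 0.11 and 0.24 ± 0.11 on the log2 scale in iMac and MCC. Polr1e, a subunit that helps initiation and elongation, was at 0.08 ± 0.12 and 0.32 ± 0.12.

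The 3 polymerase III genes moved apart, with 1 called higher and 1 lower in each contrast against MEF. Shares of all tested genes were 25.1% higher and 32.4% lower in iMac, and 23.4% and 29.6% in MCC. Polr3g, a subunit used in stem and dividing cells in place of its paralogue Polr3gl, was at 23.8 and 24.3 CPM in iMac and 26.2 and 26.8 CPM in MCC, against 7.996 and 8.965 CPM in MEF. It rose 2.84-fold in iMac (log2 1.51 ± 0.13, edgeR adjusted p = 0.00115) and 3.13-fold in MCC (log2 1.64 ± 0.13, edgeR adjusted p = 0.00116), with no overlap between groups.
Polr3d, a core subunit, was at 19.0 and 19.4 CPM in iMac and 25.8 and 22.6 CPM in MCC, against 40.6 and 36.1 CPM in MEF. It was the only member that fell in both contrasts, by 0.997 ± 0.13 on the log2 scale in iMac (edgeR adjusted p = 0.00348) and by 0.67 ± 0.13 in MCC (edgeR adjusted p = 0.0123). The MCC call was lost without MCC library 2, at -0.45 (edgeR adjusted p = 0.0869), and in a fit of MCC and MEF alone, at -0.55 (edgeR adjusted p = 0.0529).
Polr3k, a small subunit with a role in termination, was at 35.0 and 32.2 CPM in iMac and 31.6 and 33.3 CPM in MCC, against 30.5 and 28.0 CPM in MEF, and passed in neither contrast.

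Polr3gl, the paralogue of Polr3g, rose as well. It was at 35.9 and 35.4 CPM in iMac and 24.6 and 22.9 CPM in MCC, against 10.98 and 10.48 CPM in MEF, with log2 fold changes of 1.73 ± 0.12 in iMac (edgeR adjusted p = 0.000626) and 1.14 ± 0.12 in MCC (edgeR adjusted p = 0.00216). Per kilobase of exon, Polr3gl was at 22.3 CPM in iMac, 14.9 in MCC and 6.72 in MEF, and Polr3g at 6.12 in iMac, 6.74 in MCC and 2.15 in MEF. By this length Polr3gl was higher in all 3 groups. The length joins the exons of all annotated transcripts, 3.936 kilobases for Polr3g and 1.597 for Polr3gl, and not those of the transcripts expressed. By CPM alone Polr3gl was higher in iMac and MEF, and Polr3g in MCC (mean of 26.5 against 23.7 CPM). Maf1, which represses polymerase III, was at 98.99 and 100.95 CPM in iMac and 73.5 and 83.0 CPM in MCC, against 41.6 and 40.9 CPM in MEF. It rose by 1.28 ± 0.10 in iMac (edgeR adjusted p = 0.000806) and 0.92 ± 0.10 in MCC (edgeR adjusted p = 0.00225) on the log2 scale.

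**Figure D3:**
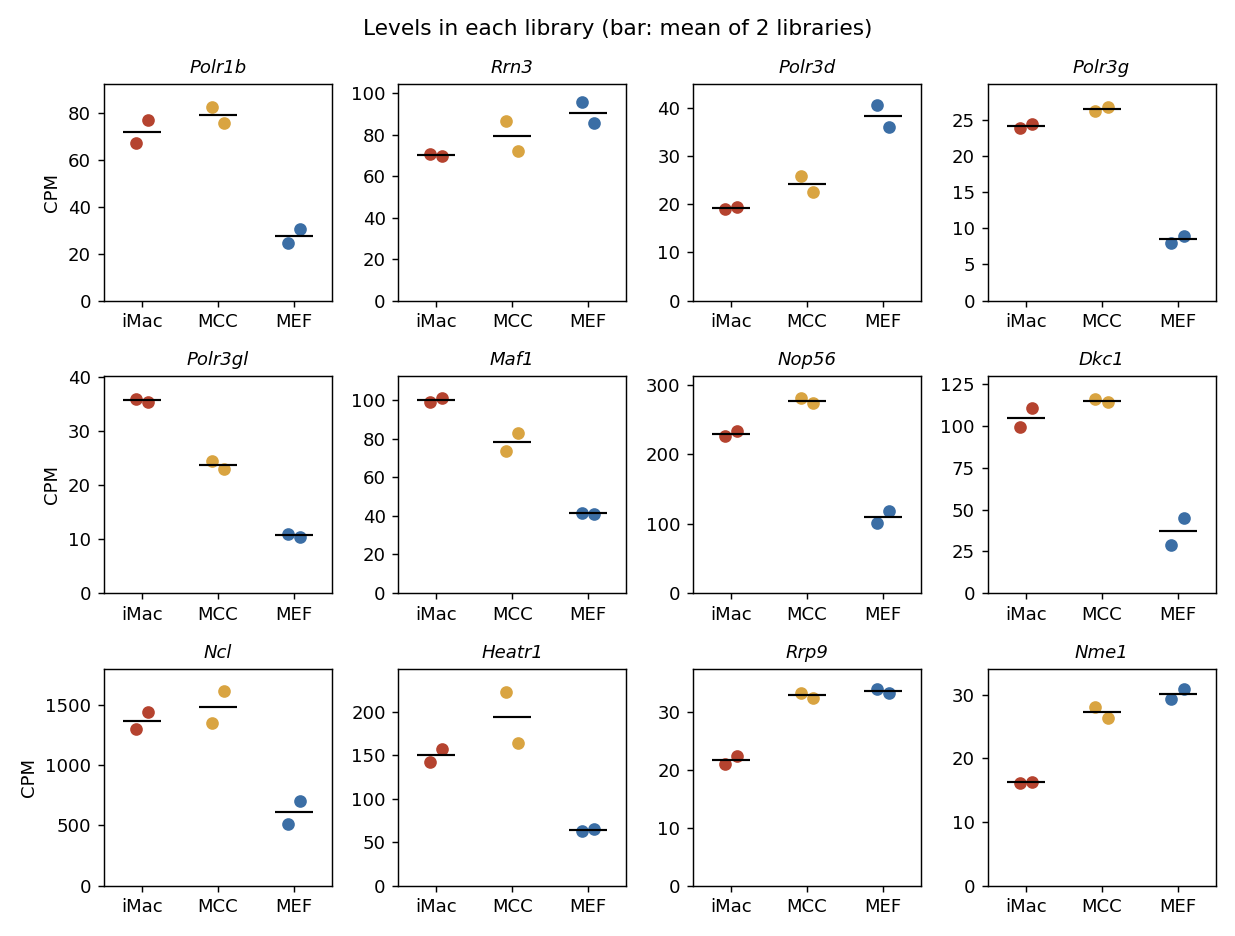
CPM in each library for 12 genes, with points for the 2 libraries of iMac, MCC and MEF from left to right and bars for their means; each panel has its own axis from 0. Polr3g and Polr3gl were both higher in iMac and MCC than in MEF, and Polr3d was lower. Rrp9 and Nme1 were lower in both iMac libraries than in all others, though the main test called neither in iMac against MCC.

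All 7 core proteins of the modification particles rose in both contrasts, where 25.1% of all tested genes rose in iMac and 23.4% in MCC. Nop56, the box C/D scaffold with the highest level of the 3, was at 226 and 233 CPM in iMac and 281 and 274 CPM in MCC, against 102 and 119 CPM in MEF. The groups did not overlap, and the log2 fold changes were 1.06 ± 0.11 in iMac (edgeR adjusted p = 0.00172) and 1.33 ± 0.11 in MCC (edgeR adjusted p = 0.00123). Fbl, the methyltransferase fibrillarin, rose by 0.98 ± 0.15 in iMac and 1.25 ± 0.15 in MCC. Nop58, the partner scaffold of Nop56, rose by 0.63 ± 0.13 in iMac and 0.85 ± 0.13 in MCC on the log2 scale. Its iMac call was lost without iMac library 2 (edgeR adjusted p = 0.0864).

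Of the box H/ACA proteins, Dkc1, the pseudouridine synthase dyskerin, was at 99.6 and 111 CPM in iMac and 116 and 114 CPM in MCC, against 28.7 and 45.3 CPM in MEF. The MEF libraries differed most here, and the log2 fold changes carried a larger error, at 1.51 ± 0.23 in iMac and 1.64 ± 0.23 in MCC. Nhp2, an RNA-binding core protein, was at 85.3 and 92.3 CPM in iMac and 117 and 126 CPM in MCC, against 38.3 and 40.1 CPM in MEF. It rose by 1.18 ± 0.10 in iMac (edgeR adjusted p = 0.000937) and 1.63 ± 0.10 in MCC (edgeR adjusted p = 0.000535). Nop10, a small bridging protein, rose by 0.83 ± 0.10 and 1.03 ± 0.10, and Gar1, which helps release the substrate, by 0.61 ± 0.15 and 0.85 ± 0.15 in iMac and MCC. The iMac call of Gar1 was lost without iMac library 1 (edgeR adjusted p = 0.0715) or iMac library 2 (0.111).

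The abundant nucleolar proteins rose in MCC in 5 of 5 cases and in iMac in 3 of 5, beside 23.4% and 25.1% of all tested genes. Ncl, nucleolin, which binds the precursor RNA, was at 1299.8 and 1442 CPM in iMac and 1354 and 1615 CPM in MCC, against 511 and 706 CPM in MEF. It rose 2.25-fold in iMac (log2 1.17 ± 0.20, edgeR adjusted p = 0.00711) and 2.44-fold in MCC (log2 1.29 ± 0.20, edgeR adjusted p = 0.00661). The iMac call narrowly failed without iMac library 2 (edgeR adjusted p = 0.0516).
Npm1, the nucleolar chaperone nucleophosmin, had the highest level of the 50 per kilobase of annotated exon. It was at 491 CPM per kilobase in iMac and 508 in MCC, against 244 in MEF. These lengths join the exons of all annotated transcripts, 2.665 kilobases for Npm1 and 10.188 for Ncl, so the ranking depends on the annotation. By CPM alone Npm1 was below Ncl in iMac (1309 against 1371) and MCC (1353 against 1485), and above it in MEF (650 against 608). Npm1 rose by 1.01 ± 0.14 in iMac and 1.06 ± 0.14 in MCC on the log2 scale. How reads that match several places were handled is not stated, so values of genes with processed copies elsewhere, as Npm1 has, are uncertain.
Nolc1, a chaperone of small nucleolar particles, was at 177 and 188 CPM in iMac and 246 and 221 CPM in MCC, against 81.3 and 100.4 CPM in MEF, and rose by 1.005 ± 0.14 in iMac and 1.36 ± 0.14 in MCC on the log2 scale. Ddx21, an RNA helicase that also contacts polymerase I transcription, was at 184 and 193 CPM in iMac and 278 and 234 CPM in MCC, against 154 and 172 CPM in MEF. It rose in MCC, by 0.65 ± 0.12 (edgeR adjusted p = 0.0112), and did not pass in iMac, at 0.21 ± 0.12 (edgeR adjusted p = 0.199). Npm3, a relative of Npm1, passed in MCC at 0.57 ± 0.14 and not in iMac at 0.36 ± 0.14 on the log2 scale. Its MCC call was lost without MEF library 1 (edgeR adjusted p = 0.0694), iMac library 1 (0.0567) or iMac library 2 (0.0571).

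The small-subunit factors did not all move one way. In iMac 7 of 11 rose, beside 25.1% of all tested genes, and 3 fell, near the 32.4% of all tested genes. In MCC 7 of 11 rose and 0 fell, beside 23.4% and 29.6% of all tested genes. Heatr1, a large processome protein that also aids polymerase I, was at 143 and 158 CPM in iMac and 223 and 164 CPM in MCC, against 63.2 and 65.1 CPM in MEF. It rose by 1.23 ± 0.17 in iMac (edgeR adjusted p = 0.00374) and 1.59 ± 0.17 in MCC (edgeR adjusted p = 0.00234). Noc4l, a factor of small-subunit assembly, rose by 1.0005 ± 0.10 and 1.41 ± 0.10 and Wdr43, a processome subunit, by 0.91 ± 0.10 and 1.05 ± 0.10 in iMac and MCC on the log2 scale. Nop14, Nol6, Utp4 and Tsr1 rose less, between 0.32 and 0.40 in iMac and between 0.54 and 0.68 in MCC. Each of these 4 lost its iMac call without iMac library 1, at edgeR adjusted p of 0.0831, 0.171, 0.0835 and 0.183 in that order, and without iMac library 2, at 0.103, 0.167, 0.0825 and 0.146. Nol6 also lost it without MEF library 1 (0.0739) or 2 (0.0709), Utp4 without MEF library 2 (0.0592), and Tsr1 without any one library (edgeR adjusted p between 0.058 and 0.183). Tsr1 shares 32.3% of its exonic bases with Srr on the other strand, and the strand setting of the counting is not stated, so its level is uncertain.

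Rrp9, Utp20 and Bysl were lower in iMac and near the fibroblast level in MCC. Rrp9, the protein specific to the U3 box C/D particle of the processome, was at 20.99 and 22.5 CPM in iMac and 33.4 and 32.5 CPM in MCC, against 34.1 and 33.3 CPM in MEF. Utp20, a very large scaffold protein, was at 87.2 and 96.5 CPM in iMac and 126 and 116 CPM in MCC, against 126 and 132 CPM in MEF. Bysl, bystin, a factor of late small-subunit maturation, was at 30.9 and 33.1 CPM in iMac and 43.3 and 42.9 CPM in MCC, against 42.1 and 41.8 CPM in MEF.
In each case both iMac libraries lay below all other libraries. In iMac against MEF they fell by 0.63 ± 0.11 (Rrp9, edgeR adjusted p = 0.00676), by 0.49 ± 0.10 (Utp20, edgeR adjusted p = 0.0107) and by 0.39 ± 0.10 (Bysl, edgeR adjusted p = 0.0212) on the log2 scale. In MCC against MEF they were at -0.03 ± 0.11, -0.09 ± 0.10 and 0.04 ± 0.10. All 3 iMac calls were lost without iMac library 1, at edgeR adjusted p of 0.0726 (Rrp9), 0.105 (Utp20) and 0.178 (Bysl), and without iMac library 2, at 0.0556, 0.0608 and 0.111 in the same order. Utp20 also lost its call without MEF library 2 (edgeR adjusted p = 0.0509). Bysl also lost its call with no filter on low counts (edgeR adjusted p = 0.0709). Set against MCC directly, Rrp9, Utp20 and Bysl were not called in iMac by the main test (edgeR adjusted p of 0.124, 0.177 and 0.163). DESeq2 called all 3 lower there.
Rrp12, an export factor, was at -0.31 ± 0.11 in iMac (edgeR adjusted p = 0.058) and 0.25 ± 0.11 in MCC (edgeR adjusted p = 0.106), passing in neither.

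Of the large-subunit factors 11 of 16 rose in iMac and 15 of 16 in MCC, and none fell. In iMac and MCC 25.1% and 23.4% of all tested genes rose, and 32.4% and 29.6% fell. Rrp1b, a nucleolar protein of large-subunit assembly, had the largest log2 fold change of the 50 in both contrasts. It was at 82.3 and 88.0 CPM in iMac and 85.1 and 93.0 CPM in MCC, against 26.0 and 27.8 CPM in MEF, that is 3.17-fold higher in iMac (log2 1.66 ± 0.10, edgeR adjusted p = 0.000457) and 3.32-fold in MCC (log2 1.73 ± 0.10, edgeR adjusted p = 0.000523). Noc2l, which helps move precursor subunits to the nucleoplasm, was at 218 and 224 CPM in iMac and 201 and 225 CPM in MCC, against 77.1 and 85.9 CPM in MEF. It rose by 1.44 ± 0.11 in iMac and 1.39 ± 0.11 in MCC, and shares 20.9% of its exonic bases with Samd11 on the other strand. Nop16 rose by 1.44 ± 0.10 and 1.67 ± 0.10 and Ppan by 1.44 ± 0.12 and 1.51 ± 0.12 in iMac and MCC, both factors of large-subunit assembly. Gnl3, the GTPase nucleostemin, rose by 1.02 ± 0.13 in iMac and 1.201 ± 0.13 in MCC.

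Of the 3 proteins of the PeBoW complex, which processes the precursor of the large-subunit RNA, Pes1 and Wdr12 rose in both contrasts and Bop1 in MCC. Pes1 rose by 1.19 ± 0.09 in iMac and 1.29 ± 0.10 in MCC, and Wdr12 by 0.94 ± 0.09 and 1.23 ± 0.09 on the log2 scale. Bop1 was at 92.5 and 85.6 CPM in iMac and 117 and 120 CPM in MCC, against 82.6 and 82.9 CPM in MEF. It rose in MCC, by 0.52 ± 0.08 (edgeR adjusted p = 0.00742), and did not pass in iMac, at 0.11 ± 0.08 (edgeR adjusted p = 0.327).
Nip7, Mrto4 and Ebna1bp2, all factors of large-subunit maturation, likewise passed in MCC alone, at 0.46 ± 0.10, 0.46 ± 0.12 and 0.49 ± 0.14, with 0.13 ± 0.10, 0.16 ± 0.12 and 0.24 ± 0.14 in iMac. Each of these 3 lost its MCC call without MCC library 1 or either iMac library, Mrto4 and Ebna1bp2 also without MEF library 1 and Ebna1bp2 without MCC library 2, at edgeR adjusted p between 0.0534 (Ebna1bp2 without MCC library 1) and 0.0848 (Mrto4 without MCC library 1). Rrs1, which brings the 5S particle to the large subunit, passed in neither contrast, at 0.21 ± 0.18 and 0.38 ± 0.18. Wdr74, Ddx18, Nop2 and Gtpbp4 made up the rest of the genes that rose in both, between 0.33 and 0.69 in iMac and between 0.42 and 0.93 in MCC. Gtpbp4 lost its iMac call without any one library (edgeR adjusted p between 0.0595 and 0.174), and its MCC call without any but MCC library 2 (between 0.0609 and 0.0979). Nop2 lost its iMac call without either iMac library (0.127 and 0.119) or either MEF library (0.0578 and 0.122), and Ddx18 without either iMac library (edgeR adjusted p of 0.0653 and 0.0855).

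Nme1, a nucleoside diphosphate kinase known as a Myc target and not a ribosome assembly factor, went the other way in iMac. It was at 16.1 and 16.4 CPM in iMac and 28.1 and 26.4 CPM in MCC, against 29.3 and 30.9 CPM in MEF. It fell by 0.89 ± 0.11 on the log2 scale in iMac (edgeR adjusted p = 0.00325) and was at -0.14 ± 0.11 in MCC (edgeR adjusted p = 0.335). It shares 12.5% of its exonic bases with an annotated gene that spans the locus and is close in sequence to its neighbour Nme2, so its level is uncertain.

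**Figure D4:**
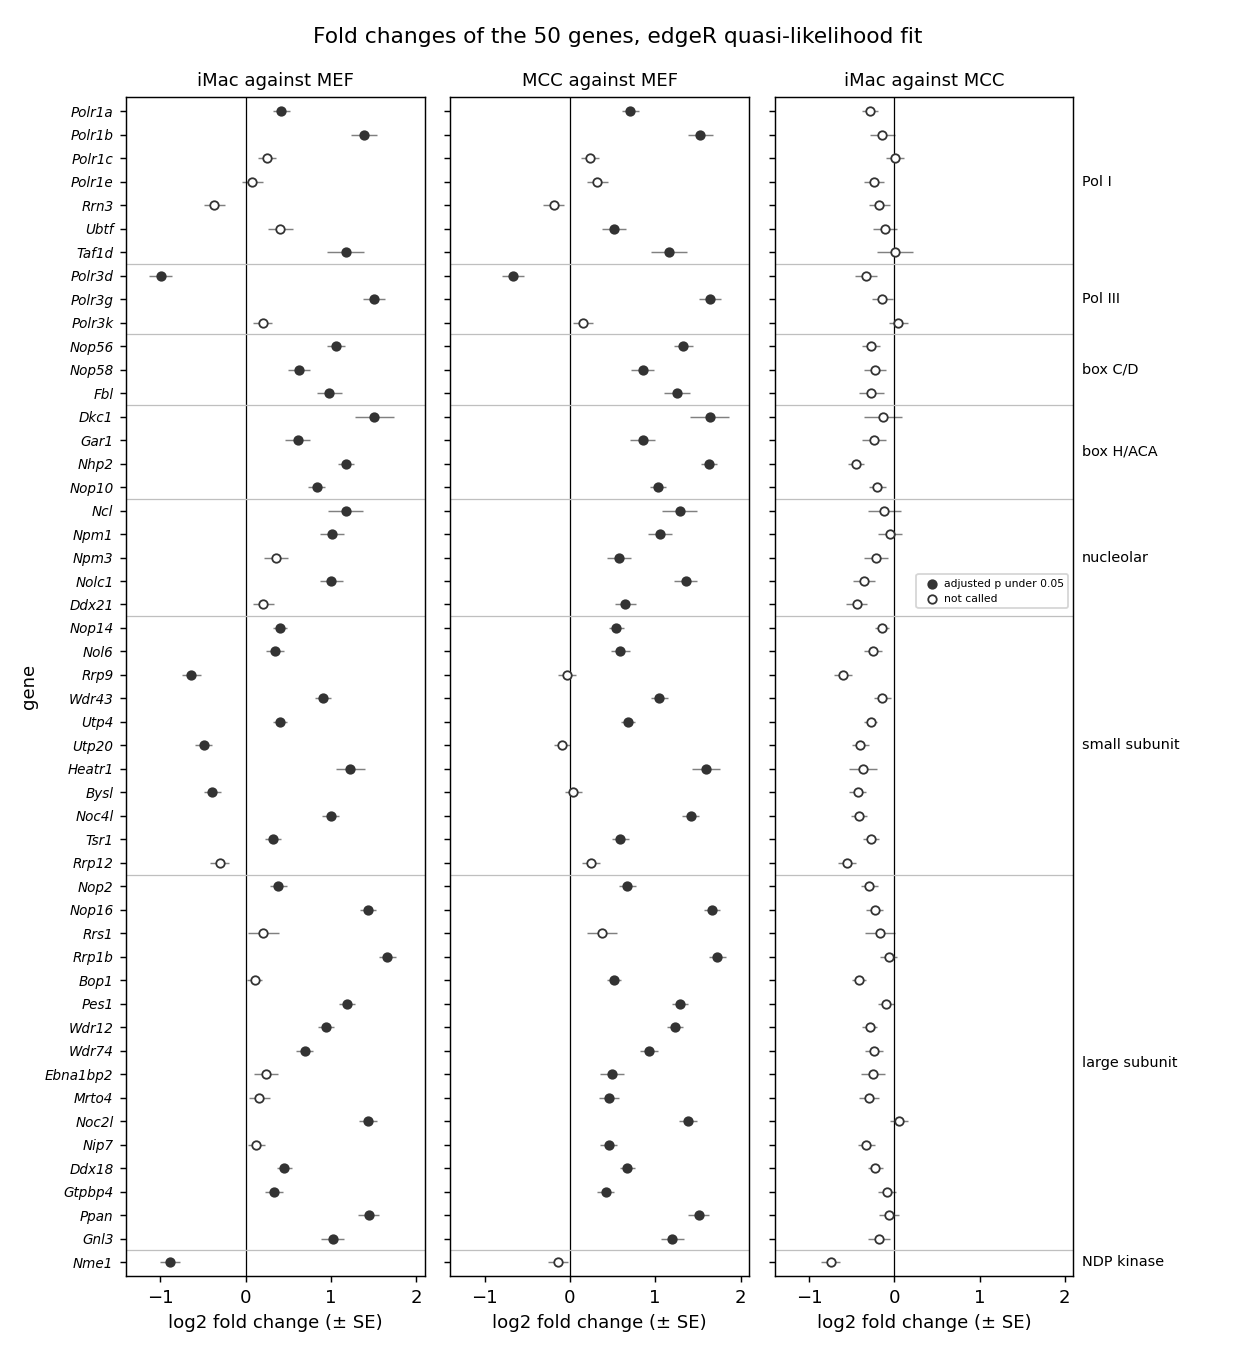
Log2 fold change of each of the 50 genes with its standard error in iMac against MEF, MCC against MEF and iMac against MCC, from left to right; filled points passed the test and open points did not. The filled points right of 0 number 32 and 39 in the first panels, where 25.1% and 23.4% of all tested genes were called higher. The third panel holds no filled points, with 46 of its 50 points left of 0, where 9622 of 18613 tested genes were.

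Set directly against each other, iMac and MCC gave few calls in the main test. With 2 libraries per group, few calls do not show that levels were alike. In iMac against MCC 0 of the 50 genes were called by edgeR, where 0.0215% of all tested genes were called, and 16 had an unadjusted p under 0.05, all of them lower in iMac. At that unadjusted threshold 10.5% of all tested genes were lower and 7.69% higher. DESeq2 called 15 of the 50 lower and 0 higher, where it called 10.3% of the 15004 genes it gave an adjusted p lower and 7.95% higher. A fit of these groups alone called 7 lower and 0 higher, where it called 4.24% of all its tested genes lower and 4.36% higher, and limma-voom called 0 of the 50, where it called 0.242% lower and 0.543% higher. Both iMac libraries were below both MCC libraries for 37 of the 50 genes, where this held for 27.9% of all tested genes, and above them for 0, where it held for 27.7%. The median log2 fold change was -0.24, beside -0.02 over all tested genes. Scaling by library totals alone shifted the median of all tested genes to -0.16 and that of the 50 to -0.38.
The 15 genes called by DESeq2 included Nme1 (log2 fold change -0.74, adjusted p = 1.31e-09), Rrp9 (-0.59, adjusted p = 2.51e-07) and Rrp12 (-0.54, adjusted p = 1.93e-05), with Nhp2, Bop1 and Bysl. Nme1 was also called by edgeR without MCC library 2, at -0.93 ± 0.15 (edgeR adjusted p = 0.0351), in a fit that called 5.71% of all tested genes lower, and by no edgeR fit that left out another library. All 20 cell cycle markers were lower in both iMac libraries than in both MCC libraries, with a median log2 fold change of -0.78, and their part in these differences was not tested.

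A further 141 genes of ribosome production outside the 50 were listed, of which 140 were in the table and tested. Of these 73 rose and 9 fell in iMac, and 84 rose and 7 fell in MCC, against MEF, with median log2 fold changes of 0.38 and 0.48. Of all tested genes 25.1% were called higher and 32.4% lower in iMac and 23.4% higher and 29.6% lower in MCC, with medians of -0.06 and -0.05. The rises spread over the small-subunit factors (26 of 40 in iMac and 29 of 40 in MCC), the large-subunit factors (25 of 44 and 27 of 44) and the exosome and trimming enzymes (6 of 15 and 10 of 15). Polymerase III and its initiation factors rose in 6 of 19 cases in iMac, near the 25.1% of all tested genes, and in 8 of 19 in MCC, beside 23.4%. Without iMac library 1 the iMac count was 36 up and 3 down, and without iMac library 2 it was 30 up and 3 down, in the fits that called 12.5% and 12.6% of all tested genes higher and 13.4% lower. Fewer of these genes were called lower in MCC without MCC library 2 or without either iMac library. Those fits also called a smaller share of all tested genes lower than the main fit did.

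Among these genes the largest rises included Exosc5, a core subunit of the RNA exosome, at 45.4 ± 3.01 CPM in iMac and 56.2 ± 8.99 CPM in MCC, against 15.8 ± 0.386 CPM in MEF (SD, n = 2 each). It rose by 1.53 ± 0.15 and 1.83 ± 0.15 on the log2 scale. Wdr3, a processome subunit, rose by 1.33 ± 0.11 and 1.42 ± 0.11, and Shq1, which assembles H/ACA particles, by 1.41 ± 0.18 and 1.27 ± 0.18 in iMac and MCC. Imp4, a protein of the U3 particle, and Nle1, a large-subunit factor, rose by 1.23 ± 0.10 and 1.13 ± 0.13 in iMac and by 1.35 ± 0.11 and 1.38 ± 0.13 in MCC.
The largest falls were in Gnl3l, the paralogue of Gnl3, at 39.0 ± 3.28 CPM in iMac and 46.4 ± 6.14 CPM in MCC, against 87.9 ± 10.2 CPM in MEF, in Polr2l, a small subunit common to all nuclear polymerases, and in Gtf3c1, the largest subunit of the polymerase III factor TFIIIC. Gnl3l fell by 1.17 ± 0.15 in iMac and 0.92 ± 0.15 in MCC, Polr2l by 1.22 ± 0.16 and 0.84 ± 0.16, and Gtf3c1 by 0.90 ± 0.11 and 0.87 ± 0.11 on the log2 scale. Gnl3 and Gnl3l thus moved in opposite directions in both contrasts. Znhit6, an assembly factor of box C/D particles, fell by 0.64 ± 0.18 in iMac and 0.81 ± 0.18 in MCC, Nol10, a small-subunit factor, by 0.85 ± 0.13 and 0.49 ± 0.13, and Spata5, whose yeast relative recycles large-subunit factors, by 0.61 ± 0.15 and 0.50 ± 0.15.

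Because Myc with its partner Max is known to bind the letters CACGTG, a palindrome that reads the same on both strands, promoters of the 50 genes were searched for it. The RefSeq promoter windows on GRCm38.p6 run from 250 bases before to 50 bases after each annotated start, and 43 of the 50 genes have one. The motif was in 8 of these 43 genes (18.6%), against 1350 of 12248 tested genes with a window (11.0%). No test was made. The 10 matches are printed with up to 12 bases on either side, the motif in capitals, to set its place in genes that rose beside its place in genes that did not.
Rrn3, 215 bases before the start (chr16:13780472-13780501, plus strand): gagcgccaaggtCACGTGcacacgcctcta
Rrn3, 48 bases before the start (chr16:13780639-13780668, plus strand): ttacgctctgctCACGTGggccgcgtcccg
Nop2, 60 bases before the start (chr6:125131811-125131840, plus strand): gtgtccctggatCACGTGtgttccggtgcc
Pes1, 2 bases after the start (chr11:3963965-3963994, plus strand): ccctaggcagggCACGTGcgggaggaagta
Wdr43, 17 bases after the start (chr17:71616220-71616249, plus strand): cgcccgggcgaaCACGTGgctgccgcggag
Utp4, 15 bases after the start (chr8:106893643-106893672, plus strand): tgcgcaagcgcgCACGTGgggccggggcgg
Tsr1, 24 bases after the start (chr11:74898092-74898121, plus strand): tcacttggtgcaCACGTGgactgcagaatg
Utp20, 37 bases after the start (chr10:88826765-88826789, minus strand): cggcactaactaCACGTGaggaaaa
Nme1, 18 bases before the first start (chr11:93968273-93968302, minus strand): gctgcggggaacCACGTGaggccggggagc
Nme1, 29 bases before the second start (chr11:93968037-93968066, minus strand): agcttgatacgcCACGTGggctcgcctttg

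The 8 genes with the motif did not move as one. Pes1, Wdr43, Utp4, Tsr1 and Nop2 rose in both contrasts, Utp20 and Nme1 fell in iMac, and Rrn3, the one gene with 2 matches in a single window, passed in neither contrast. Rrp1b, Nop16, Polr3g and Dkc1, the 4 genes with the largest rises in MCC against MEF, had no match in their windows. The full 250 bases before the start of Rrn3 (chr16:13780449-13780698, plus strand) and of Nop2 (chr6:125131633-125131882, plus strand) are given as the longer context of a gene that did not pass and of one that rose.
Rrn3: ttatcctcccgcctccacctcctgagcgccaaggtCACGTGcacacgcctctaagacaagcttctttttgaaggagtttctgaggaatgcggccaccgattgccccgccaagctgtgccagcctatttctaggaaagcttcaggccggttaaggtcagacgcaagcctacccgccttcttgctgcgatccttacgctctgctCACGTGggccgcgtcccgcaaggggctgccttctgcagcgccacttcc
Nop2: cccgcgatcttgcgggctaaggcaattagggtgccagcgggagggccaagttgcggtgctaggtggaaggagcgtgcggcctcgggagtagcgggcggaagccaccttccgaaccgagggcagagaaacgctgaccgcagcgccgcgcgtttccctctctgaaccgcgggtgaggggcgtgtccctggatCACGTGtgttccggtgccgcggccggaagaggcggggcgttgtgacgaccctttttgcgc
A match describes letters in this window and not binding, and no match says nothing of Myc at other places.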

How the data were processed

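RNA was measured by sequencing in 6 libraries. The authors deposited one table of raw, whole-number gene counts, made with STAR and featureCounts on mm10, per the submitters' processing notes. No tool version, gene annotation, strand setting or rule for multiply matching reads was found in those notes. RNA was extracted with Trizol before mRNA library preparation, per the labels' protocols.

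Counts were used as deposited. The main test was that of edgeR 4.0.16, run in R 4.3.3 (filterByExpr, TMM scaling, two-sided quasi-likelihood test with group as the only term on all 6 libraries, 3 residual degrees of freedom). P-values were adjusted by Benjamini-Hochberg over the 18613 genes tested of 30445, with a threshold of 0.05. Standard errors are the absolute log2 fold change over the root of F (prior count 0.125). No counting intervals are given, as every gene described had at least 295 counts per library. Means carry the SD over 2 libraries. The libraries of each group differed by more than counting error, with a chi-square per degree of freedom of 9.36 in iMac, 47.2 in MCC and 143 in MEF.

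Alternatives were median-ratio, upper-quartile and no scaling, DESeq2 1.42.0, limma-voom (limma 3.58.1), no filter, a filter of 5 CPM in 2 libraries, only the groups compared, a replicate block and leaving out each library. The fit was also run on simulated counts with the same spread for every gene and most genes unchanged. These data differ in both respects, so that run does not show how well the calls hold here. Exonic lengths, overlaps and coordinates are from GENCODE release M21, whose build GRCm38 is mm10. Exonic length joins the exons of all annotated transcripts of a gene and may exceed that of the transcripts expressed. Figures used Python 3.11.15 with matplotlib 3.10.9.

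The members and lists were chosen with earlier results of these data known. Values in every library are given, per role, for the gene with the highest mean CPM and those with the largest change in each comparison, and for genes called against the majority. Myc and Polr3gl were added by the same rule. Of the other pathway genes, the 5 largest rises and the 5 largest falls against MEF were named.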

Additional observations from a re-analysis of the deposited data

How the results depend on the processing

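Across the 15 alternatives the 39 rises in MCC against MEF ranged from 33 to 40, and the 32 rises in iMac against MEF from 20 to 33. Leaving out 1 library gave 33 to 38 rises and 0 to 1 falls in MCC against MEF, 20 to 30 rises and 2 to 6 falls in iMac against MEF, and 0 to 1 falls in iMac against MCC. The 1 fall in MCC against MEF, Polr3d, was 0 in a fit of only the groups compared. In iMac against MCC, where 0 genes were called, DESeq2 called 15 falls, where it called 10.3% of all genes with an adjusted p lower, and the fit of only the groups compared called 7, where it called 4.24% lower. The cause of these differences was not tested. With no scaling factor, 23 genes rose in iMac against MEF, where 21.1% of all tested genes did. No called gene changed sign. In the fits on all 6 libraries the share of all tested genes called higher ranged from 13.1% to 32.2% in MCC against MEF. In iMac against MEF it ranged from 14.1% to 33.3%. Counts of rises under different settings are thus not on one scale.

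A replicate block gave 39 rises and 1 fall in MCC against MEF, where it called 21.3% of all tested genes higher and 27.2% lower. In iMac against MEF it gave 29 rises and 6 falls, where it called 23.1% higher and 30.1% lower. In iMac against MCC it gave 0 of either, and 0 over all tested genes. Deviations of same-numbered libraries correlated at 0.21 (MCC and MEF), 0.04 (iMac and MCC) and 0.02 (iMac and MEF), so the numbers were not taken to pair the libraries. With 2 libraries per group, small differences such as those between iMac and MCC are at the limit of the test.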
